A study of Rattus norvegicus with 16 samples.

Results

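The transforming growth factor beta (TGF-beta) genes described here are 7 of the 14930 genes listed in any of the 16 libraries of a rat disc puncture study. They were chosen by name, with earlier results of these data known: the 3 ligands Tgfb1, Tgfb2 and Tgfb3, the receptors Tgfbr1 and Tgfbr2, the co-receptor Tgfbr3, and Tgfbi, which encodes a secreted matrix protein named for its induction by TGF-beta. All 7 were listed in every library, and all 7 passed the limit on low values in IVD cells (at least 1 CPM in at least 4 libraries). CPM is the share of a cell's UMIs (unique molecular identifiers, 1 per captured transcript) scaled to 1000000, and the level of a gene in a library is the mean CPM over the cells of a class.

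The libraries came from 8 male Sprague-Dawley rats with no engineered allele named, 8 weeks old when a 27G needle was passed once into the L4-5 and L5-6 discs. Rats 1 to 4 were sampled 2 weeks and rats 5 to 8 were sampled 8 weeks after surgery. The rat numbers are those of the sample titles, and equal numbers were taken as 1 animal. Each rat gave 1 injured library (LDP, lumbar disc puncture, its 2 punctured discs combined) and 1 uninjured library (CON, the L2-3 and L3-4 discs combined), so that a library holds the pooled cells of 2 discs of 1 animal. Control discs belonged to operated animals and lay at higher levels of the spine, so injury and disc level cannot be told apart. Hoxd10, a gene of the posterior body axis, was at 0.278 to 4.77 CPM in CON and 6.02 to 11.7 CPM in LDP IVD cells at 2 weeks, and at 0.596 to 0.997 and 7.95 to 12.9 CPM at 8 weeks. Rats of 2 and of 8 weeks were different animals, so time after surgery, age and the handling of each set cannot be told apart either.

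TGF-beta is secreted in a latent complex and held in the matrix by latency-binding proteins and fibrillin until integrins, proteases or thrombospondin release it. The free dimer binds the type II receptor TGFBR2, which recruits and phosphorylates the type I receptor TGFBR1. TGFBR1 then phosphorylates Smad2 and Smad3, which enter the nucleus with Smad4. Betaglycan, encoded by Tgfbr3, binds ligand at the surface and presents it, which matters most for TGF-beta 2. In the disc the pathway is known for its part in forming the annulus and in keeping up the proteoglycan and collagen matrix.

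The 16 libraries held 149272 cells, 2221 to 15918 each, with 17759809 to 85025591 UMIs per library and median cells of 3861 to 8092 UMIs. Intervertebral disc (IVD) cells made up 127077 of them. Behind the levels in IVD cells stood 89 to 1223 UMIs per library for Tgfb3, the lowest, and 2224 to 23938 for Tgfbi, the highest. Pairs of libraries shared 0 to 75 cell barcodes over 120 pairs, at most 0.720% of the smaller library. The class names are those the authors gave to their clusters. The classes carried their markers. The sum of 8 endothelial markers was 4086 to 5034 CPM in CON endothelial cells at 2 weeks against 30.3 to 168 CPM in CON IVD cells. CON libraries of 8 weeks have no endothelial class.

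At 2 weeks the authors divided IVD cells into subclusters numbered 1, 2 and 3, in CON and in LDP separately. The annotation of the cells gives these numbers only. In CON the paper names number 1 nucleus pulposus (NP), beside an inner (IAF) and an outer annulus fibrosus (OAF) subcluster. Here 1, 2 and 3 were read as NP, IAF and OAF in CON and, by number alone, in LDP. Subcluster 3 matched between them, with Col1a1, the fibrous collagen of the outer annulus, at 38467 to 68375 CPM in CON and 35356 to 67556 CPM in LDP. For numbers 1 and 2 the match between CON and LDP was uncertain. Col1a1 was lower in subcluster 1 than in subcluster 2 in all 8 libraries, as these names have it. Acan is the main proteoglycan of the inner disc and Cd24 a nucleus pulposus marker. Both were higher in subcluster 1 in all 4 CON libraries and lower there in all 4 LDP libraries. In LDP of rats 1 to 4 Acan was 4040, 3969, 4414.5 and 2804 CPM in subcluster 1 and 4163, 4062, 4566.5 and 3192.5 CPM in subcluster 2. Col2a1, the main collagen of the inner disc, was higher in subcluster 1 in 2 of 4 CON libraries and, as these names have it, in 3 of 4 LDP libraries. The median cell of subcluster 1 had 6997 to 8544 UMIs in CON and 4100 to 6403 in LDP, while that of subcluster 2 had 2442 to 3789 UMIs in CON and 7894 to 10580 in LDP. Across 7564 genes the difference between subclusters 1 and 2 in CON correlated negatively with that in LDP (r = -0.463, across genes, which are not independent replicates). Comparisons within NP and within IAF were therefore made by equal number (called as labelled below), with the numbers exchanged in LDP, and with both subclusters together.

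The start of each gene was also looked up in RefSeq, on the rat build GRCr8, where all 7 have a promoter entry. By the annotated gene span, the 250 bases before the start used in that table lie wholly inside the gene for Tgfb2, Tgfb3 and Tgfbr2 and partly for Tgfbi (121 bases) and Tgfbr1 (50 bases). In these 250 bases, the GC box GGGCGG (either strand) was found in Tgfbr1, Tgfbr2, Tgfbr3 and Tgfbi and in no ligand, against 30.47% of 33469 rat promoters of the same length. CCAAT was found in Tgfbr1 and Tgfbr2 and in 34.02% of all promoters. TATAAA (12.93% of all), the AP-1 site TGACTCA (4.05%), the cAMP response element TGACGTCA (1.59%) and the Smad box CAGAC (42.93%) were found in 0 of the 7, which says only that these letters are not in these windows. Guanine and cytosine made up 75.6% of the bases of Tgfbr1, 71.2% of Tgfbr3, 65.6% of Tgfbi and 58.0% of Tgfbr2. The ligands had 61.6% (Tgfb2), 60.0% (Tgfb1) and 48.8% (Tgfb3), beside a median of 51.2% over all promoters. Below are the windows of Tgfb1 (chr1:90324062-90324311, plus strand) and Tgfbr3 (chr14:2634044-2634293, plus strand), shown as the pair that lies wholly outside the annotated gene and as one without and one with the GC box. The match is in capitals and, in Tgfbr3, reads on the other strand.
Tgfb1: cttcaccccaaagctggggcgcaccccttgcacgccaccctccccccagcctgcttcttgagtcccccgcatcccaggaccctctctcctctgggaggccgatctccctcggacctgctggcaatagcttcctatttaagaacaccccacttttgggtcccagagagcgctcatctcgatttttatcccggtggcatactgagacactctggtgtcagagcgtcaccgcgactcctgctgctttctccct
Tgfbr3: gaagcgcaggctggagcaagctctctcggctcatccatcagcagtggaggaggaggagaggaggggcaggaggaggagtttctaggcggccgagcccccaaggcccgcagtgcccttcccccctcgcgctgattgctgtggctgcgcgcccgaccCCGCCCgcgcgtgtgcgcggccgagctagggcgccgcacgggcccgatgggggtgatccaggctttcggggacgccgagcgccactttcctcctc

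At 2 weeks Tgfb1, the ligand made by many leukocytes, had its highest mean in myeloid cells, and Tgfb2 and Tgfb3 in the outer annulus. The classes and subclusters were drawn from these same values, so these levels are a description and were not tested. In CON, Tgfb1 was 213, 268, 254 and 161 CPM in the myeloid cells of rats 1 to 4, and 156, 148, 148 and 111 CPM in their endothelial cells. Its means over the 3 IVD subclusters were 53.6 to 65.8 CPM, with overlapping ranges. Myeloid cells were above the IVD cells of their own library in 8 of 8 libraries, by 2.28 to 5.21 times, and endothelial cells by 1.74 to 2.87 times. A single CON library of 2 weeks held enough lymphoid cells, at 100 CPM, and 3 LDP libraries had them at 158 to 187 CPM. Myeloid cells stood apart from the other classes in CON, whereas in LDP, at 172 to 368 CPM, they overlapped the lymphoid and the endothelial cells.

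Tgfb2 in CON OAF cells was 76.7, 80.0, 79.5 and 76.0 CPM, in endothelial cells 32.8 to 46.0 CPM, and in NP and IAF cells 14.8 to 21.6 CPM. These 3 levels did not overlap, and NP and IAF cells did not stand apart from each other. Tgfb3 was the ligand most unevenly spread among disc cells: 58.4, 64.5, 64.2 and 89.3 CPM in CON OAF cells, against 8.81 to 14.8 CPM in IAF and 7.97 to 9.50 CPM in NP cells. OAF cells exceeded NP cells of the same library 6.55 to 11.7 times for Tgfb3 and 3.55 to 4.80 times for Tgfb2, in 8 of 8 libraries each. Over IAF cells the ratios were 4.37 to 10.5 and 2.77 to 5.13, also in 8 of 8 libraries, so that the direction did not depend on how subclusters 1 and 2 are matched. In CON myeloid cells Tgfb2 was 0 to 12.5 CPM, from 0 to 8 UMIs per library, and Tgfb3 0 to 8.06 CPM, from 0 to 5 UMIs, a range that overlapped that of NP cells.

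**Figure D1:**
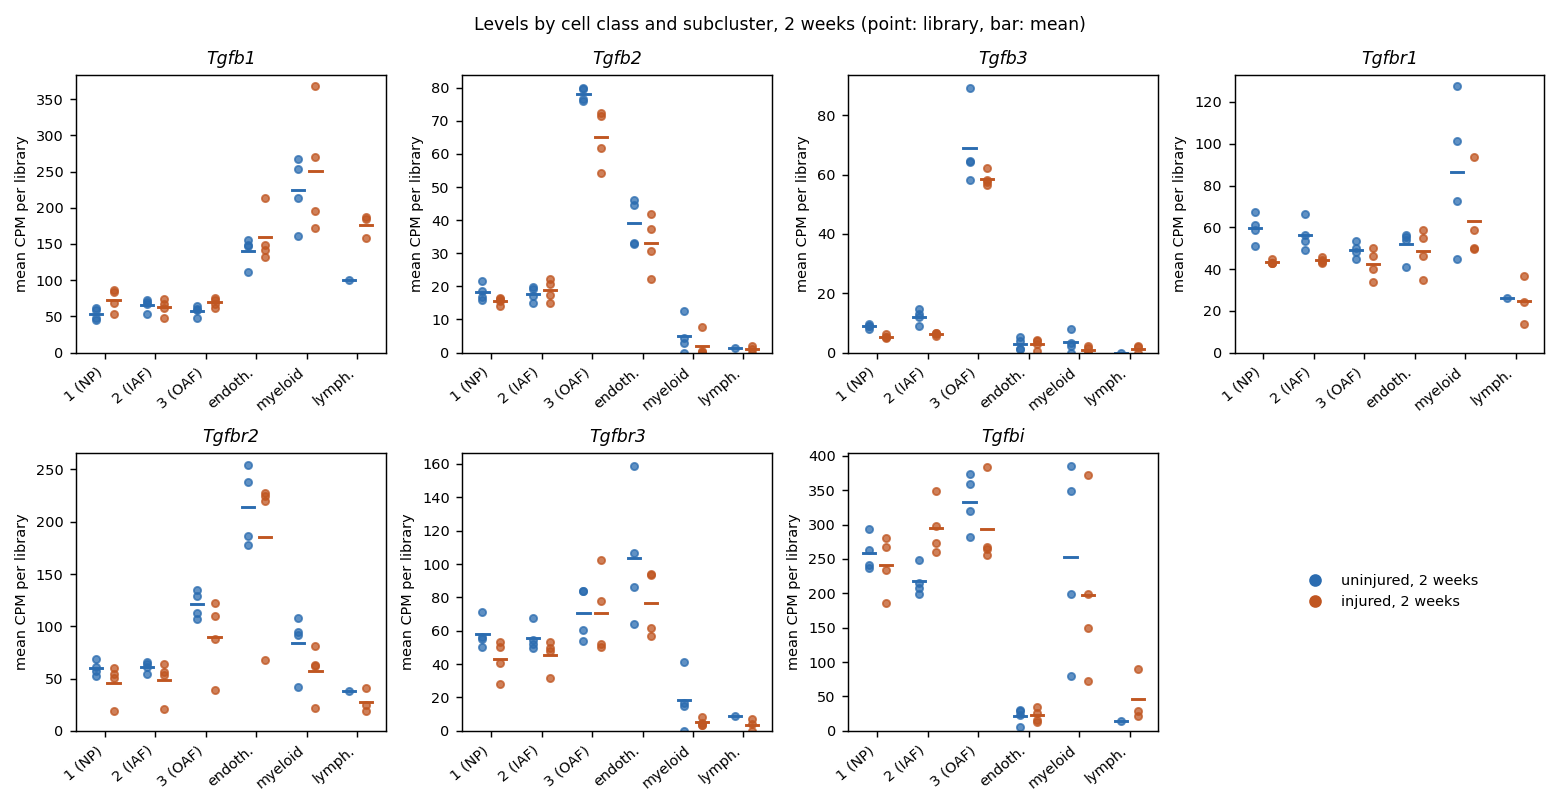
Mean CPM per library (vertical axis) of each gene in the IVD subclusters and the endothelial, myeloid and lymphoid classes at 2 weeks, blue for uninjured and orange for injured libraries; each point is 1 library of at least 20 cells of the class and each bar the group mean. By group means Tgfb1 was highest in myeloid cells, Tgfb2 and Tgfb3 in subcluster 3 (OAF), Tgfbr2 in endothelial cells, and Tgfbi was low in endothelial and lymphoid cells.

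Of the receptors, Tgfbr2 was highest in endothelial cells (178, 186, 238 and 254 CPM in CON), followed by OAF cells (129, 107, 113 and 135 CPM). Endothelial cells exceeded the IVD cells of their library 2.69 to 3.75 times, and OAF cells exceeded NP cells 1.45 to 2.42 times and IAF cells 1.37 to 2.39 times, in 8 of 8 libraries. Tgfbr1 had CON means of 49.2 CPM in OAF, 51.7 in endothelial, 56.4 in IAF, 59.6 in NP and 86.5 CPM in myeloid cells, each of these neighbours overlapping the next, and 26.1 CPM in the lymphoid cells of the 1 CON library that held enough, below all OAF libraries. Tgfbr3 was highest in endothelial cells at 64.0 to 159 CPM in CON, which overlapped the 53.6 to 84.1 CPM of OAF cells. In myeloid cells Tgfbr3 was 0 to 41.2 CPM in CON, with 0 in 1 library.

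Tgfbi in CON was 281 to 373 CPM in OAF, 237 to 293 CPM in NP and 200 to 249 CPM in IAF cells, and 79.8, 349, 199 and 385 CPM in myeloid cells. It was 6.08 to 29.8 CPM in endothelial cells, apart from all the former. With each cell thinned to 1000 UMIs, 20.4% of CON IVD cells at 2 weeks held a Tgfbi UMI against 2.06% of endothelial cells, where the gene was low, with median depths of 4226 to 7640 and 1685 to 3511 UMIs per cell. Unthinned, the shares were 58.1% and 4.47%. For Tgfb3 the thinned shares were 6.59% of OAF, 0.877% of NP and 0.213% of endothelial cells, and 27.3%, 6.81% and 0.663% unthinned.

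IVD cells, which were 127077 of the 149272 cells, supplied most UMIs of each gene, with a median over the 16 libraries of 85.5% for Tgfb1 and 98.3% for Tgfbi. One library stood apart: in the LDP library of rat 6, of 2221 cells, 628 cells of the class without a name held 54.1% of the Tgfb3 UMIs, at 28.4 CPM, and 38.2% of the Tgfbr3 UMIs, at 161 CPM. These 628 cells had a summed Schwann cell marker level of 6831 CPM (3 of 4 markers listed, none at 0), against 56.8 to 391 CPM in the unnamed cells of the other LDP libraries of 8 weeks.

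Over the 44 combinations of library and class at 2 weeks, among 10984 genes, the levels most like Tgfb3 were those of Mmp2 (r = 0.956), a matrix metalloproteinase, Evc (0.956) and C1s (0.952). Tgfb2 was most like Cald1 (0.950), an actin-binding protein of contractile cells, Sh3d19 and Meox2, and Tgfb1 most like Skap2 (0.929), an adaptor of blood cells, Nfkbib and Nabp1. Nearest to Tgfbr2 were Macf1 (0.915), Esyt2 and Ric1, to Tgfbr3 Cavin3 (0.955), Maged1 and Sulf1, and to Tgfbi LOC108348172 (0.933), Fam46a and Lrp1. The best match of Tgfbr1 was lower than for the other 6 genes (Nbr1, 0.830). These combinations share libraries, depth and class, so r is a description of likeness.

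Injury against no injury was compared in IVD cells with the rat as block, on log2(mean CPM + 1), by limma over 11572 genes. At 2 weeks no member passed an adjusted p (Benjamini-Hochberg over all genes tested) of 0.05, where 0.181% of all genes did (21 of 11572). At 8 weeks none of the 7 passed, against 0.259% (30 genes). The difference between both injury effects was called for no member and for 0% of the genes by limma (206 of 11572 at an unadjusted p under 0.05) and for 0 genes by edgeR. The lowest adjusted p of a member was that of Tgfb3 at 8 weeks.

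Tgfb3, which like Tgfb2 was highest in OAF cells, was lower in the LDP than in the CON library of all 8 rats. At 2 weeks its level in CON IVD cells was 16.1, 16.7, 16.3 and 18.4 CPM and in LDP cells of the same rats 8.71, 14.0, 11.2 and 13.8 CPM. In rats 5 to 8 it was 11.3, 10.3, 7.11 and 11.6 CPM in CON and 4.73, 6.80, 4.34 and 6.40 CPM in LDP. The groups did not overlap at either time. The log2 change was -0.49 ± 0.15 (SE) at 2 weeks (limma adjusted p = 0.257) and -0.75 ± 0.14 (SE) at 8 weeks (limma adjusted p = 0.0661), so neither was called. At 8 weeks it was called with a pseudocount of 0.1 CPM (-0.85, limma adjusted p = 0.0464) and when IVD cells with a marker of another class were left out and red cell markers were not used for this (-0.82, limma adjusted p = 0.0198). Both settings also called more of all genes than the main fit did, as counted in the section on processing. With red cell markers used as well, which left 39 CON and 23 LDP cells in rat 5, the change was -0.13 (limma adjusted p = 0.852), and over all 15 alternatives it ran from -0.85 to -0.13. The 2-week change ran from -0.81 to -0.13 over 16 alternatives and was called in none.

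The summed outer annulus markers were lower in LDP in 3 of 4 rats at 2 weeks and in all 4 at 8 weeks, as was each of the 6 genes taken alone, although not always in the same 3 rats. Col1a1 made up 55.2 to 90.9% of the sum in a library. The sum in IVD cells, with no gene at 0, was 15017, 13663, 13705 and 8681 CPM in CON and 6663, 13307, 9800 and 8710 CPM in LDP of rats 1 to 4, and 2388 to 4268 and 1012 to 2751 CPM at 8 weeks. Without Col1a1 the sum at 2 weeks was lower in LDP in all 4 rats. It was 2862, 1647, 1970 and 2139 CPM in CON and 1012, 1640, 893 and 1433 CPM in LDP. At 8 weeks it was 877 to 1570 CPM in CON and 387 to 848 CPM in LDP, again lower in all 4 rats. OAF cells were 14.6, 13.4, 9.28 and 10.1% of IVD cells in CON and 6.29, 16.4, 9.27 and 14.98% in LDP, higher in LDP in rats 2 and 4. Endothelial markers in IVD cells summed to 30.3 to 168 CPM in CON and 13.8 to 26.2 CPM in LDP at 2 weeks, and Schwann cell markers to 11.8 to 16.02 and 18.7 to 92.6 CPM. Of the 9 endothelial and 4 Schwann cell markers 8 and 3 were listed, none at 0 in any library of 2 weeks. The part of these markers in the Tgfb3 values was not tested. With the 3 subclusters weighted equally at 2 weeks, the Tgfb3 change was -0.33 ± 0.14 (SE, limma adjusted p = 0.549; 0.14% of all genes called). Over all cells at 8 weeks, with the unnamed class included, Tgfb3 in rat 6 was 7.56 CPM in CON and 12.4 CPM in LDP, against the direction of the other 3 rats, and the change was -0.44 ± 0.25 (SE, limma adjusted p = 0.607; 0.0082% of all genes called). Without rat 6 the change in IVD cells was -0.83 (limma adjusted p = 0.147). Less RNA per cell and fewer cells of a kind within the class cannot be told apart in such means.

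Tgfb1 in IVD cells was 63.7, 51.5, 67.7 and 49.2 CPM in CON and 78.5, 52.3, 66.4 and 75.4 CPM in LDP at 2 weeks. At 8 weeks the order of the groups was the opposite, with 93.6, 64.3, 80.4 and 62.0 CPM in CON and 60.2, 62.3, 48.6 and 59.5 CPM in LDP. The groups overlapped at both times, although LDP was lower in all 4 rats at 8 weeks. The log2 change was 0.22 ± 0.16 (SE, limma adjusted p = 0.575) and -0.36 ± 0.16 (SE, limma adjusted p = 0.232). Without rat 4 the 2-week change was 0.097. The difference between both was -0.59 ± 0.22 (SE), the largest in size of the 7 members, with an interval from -1.08 to -0.09 and an unadjusted limma p of 0.0248, and was not called (limma adjusted p = 1.00).

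Tgfb2 in IVD cells was 21.6 to 28.7 CPM in CON and 20.5 to 25.5 CPM in LDP at 2 weeks. At 8 weeks it was 29.4, 26.5, 30.2 and 26.3 CPM in CON and 22.8, 23.7, 25.6 and 24.5 CPM in LDP, without overlap. Its log2 change was -0.13 ± 0.12 (SE, limma adjusted p = 0.653) and -0.21 ± 0.12 (SE, limma adjusted p = 0.316), and that of 2 weeks was -0.06 without rat 1. With means of the deposited log2 values the 8-week change turned to 0.03, and in edgeR with TMM it was -0.01. The 95% intervals, -0.39 to 0.13 and -0.47 to 0.05, were the narrowest of the members.

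**Figure D2:**
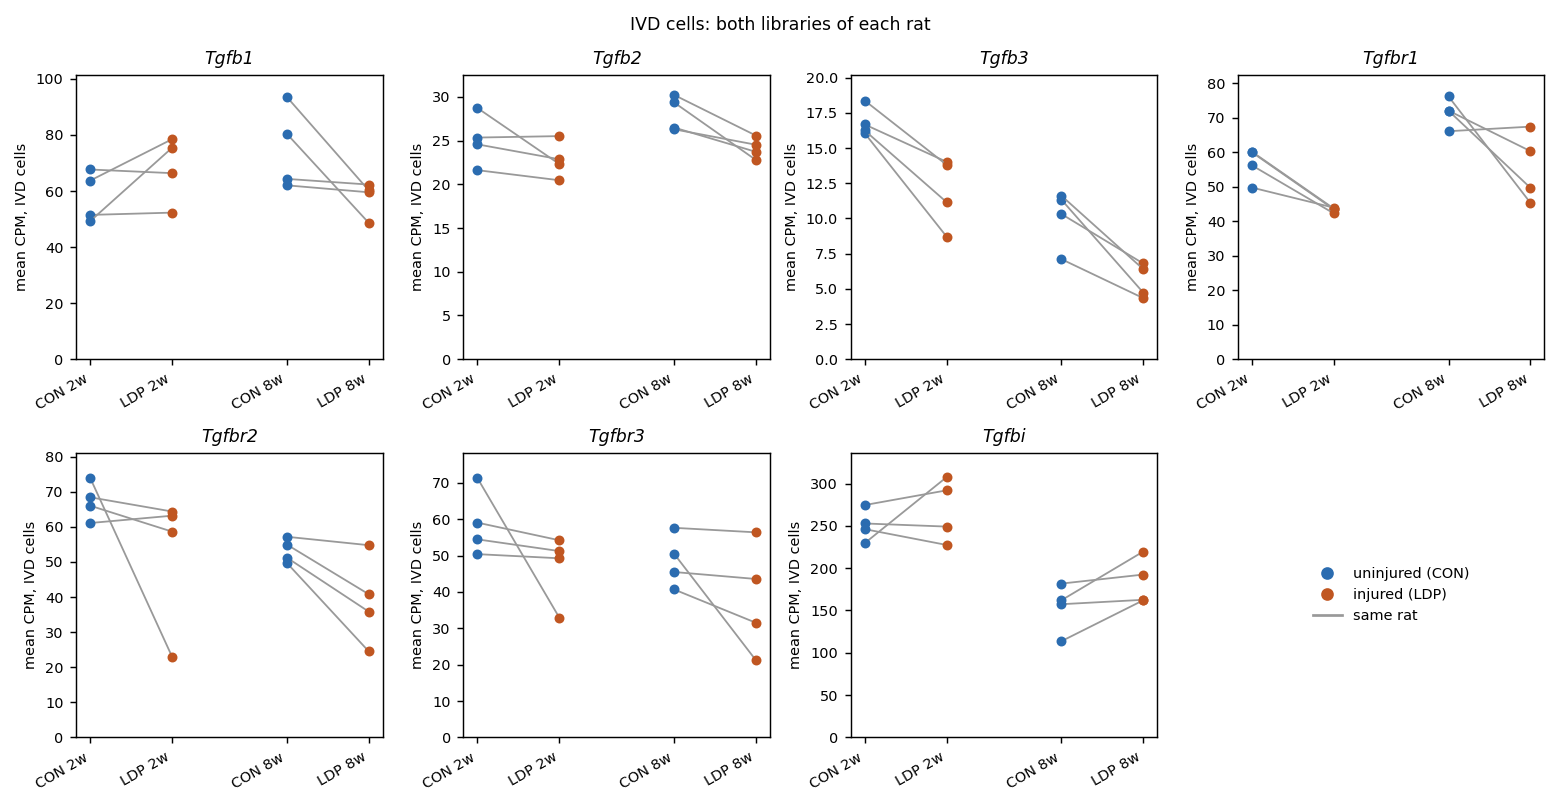
Mean CPM in IVD cells (vertical axis, from 0) of the uninjured (CON, blue) and injured (LDP, orange) library of each rat at 2 and 8 weeks, with a grey line joining both libraries of 1 rat. Tgfb3 and Tgfbr3 were lower in the injured library of all 8 rats, and for Tgfbr2 at 2 weeks the injured library of rat 4 lay apart at 23.0 CPM.

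The signalling receptor Tgfbr1 was 49.7, 60.0, 60.1 and 56.2 CPM in CON and 43.9, 43.4, 43.6 and 42.2 CPM in LDP at 2 weeks, again without overlap and with a narrow spread in LDP (43.3 ± 0.73 CPM, SD, n = 4). Its levels at 8 weeks were 72.0, 66.0, 76.1 and 72.0 CPM in CON and 49.6, 67.4, 45.3 and 60.3 CPM in LDP, where rat 6 went the other way. The log2 change was -0.37 ± 0.14 (SE) at both times (limma adjusted p = 0.356 and 0.187).

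Tgfbr2 was 66.0, 61.1, 68.4 and 73.9 CPM in CON and 58.6, 63.2, 64.4 and 23.0 CPM in LDP at 2 weeks. A single library, that of rat 4, was low, and without this rat the change went from -0.46 to -0.07. The summed red cell markers in the IVD cells of this library were at 1352 CPM. In the other libraries of 2 weeks they were at 1.65 to 462 CPM, and their part was not tested. This LDP library was also the lowest of its group for Tgfbr2 in NP (19.2 CPM), IAF (21.0), OAF (39.2), endothelial (67.8) and myeloid cells (22.1 CPM), but not in lymphoid cells (24.9 CPM, against 18.7 CPM in rat 2). At 8 weeks Tgfbr2 was 49.7, 51.2, 55.0 and 57.2 CPM in CON and 24.5, 35.8, 40.8 and 54.8 CPM in LDP, lower in all 4 rats (-0.49 ± 0.26, SE, limma adjusted p = 0.290, and -0.33 without rat 5).

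The co-receptor Tgfbr3 was 59.1, 50.4, 54.5 and 71.3 CPM in CON and 54.2, 49.3, 51.2 and 32.9 CPM in LDP at 2 weeks. The 8-week levels were 50.5, 57.6, 40.7 and 45.5 CPM in CON and 21.2, 56.4, 31.5 and 43.6 CPM in LDP. LDP was lower in all 8 rats but by only 0.03 to 0.12 on the log2 scale in rats 1, 2, 3, 6 and 8, and the groups overlapped (-0.33 ± 0.22 and -0.42 ± 0.22, SE, limma adjusted p = 0.557 and 0.305). Without rat 4 the change at 2 weeks was -0.08, and without rat 5 that at 8 weeks was -0.15. Tgfbr2 and Tgfbr3 were highest in endothelial cells. The endothelial marker sum in IVD cells was 30.3 to 168 CPM in CON and 13.8 to 26.2 CPM in LDP at 2 weeks. At 8 weeks that sum was 8.86 to 16.99 CPM in CON and 6.58 to 8.31 CPM in LDP. Its part in the Tgfbr2 and Tgfbr3 values was not tested.

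Tgfbi, the matrix protein, was 275, 253, 246 and 229 CPM in CON and 292, 249, 227 and 308 CPM in LDP at 2 weeks. At 8 weeks it was 114, 157, 162 and 182 CPM in CON and 162, 163, 220 and 192 CPM in LDP, higher in all 4 injured libraries but overlapping. The change was 0.09 ± 0.13 (SE, limma adjusted p = 0.764) and 0.27 ± 0.13 (SE, limma adjusted p = 0.260). At 2 weeks it turned to -0.0154 without rat 4, and at 8 weeks it was 0.84 with means of the deposited log2 values (limma adjusted p = 0.383) and 0.45 in edgeR with TMM (adjusted p = 0.229).

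Over the alternatives the 2-week change ran from 0.10 to 0.44 for Tgfb1, -0.44 to -0.12 for Tgfbr1, -0.63 to -0.07 for Tgfbr2 and -0.43 to -0.08 for Tgfbr3, and the 8-week change from -0.47 to -0.13, -0.51 to -0.23, -0.78 to -0.32 and -0.89 to -0.14, each with its sign kept and none called. LDP was below CON in all 4 rats for 3 of the 7 genes at 2 weeks (Tgfb3, Tgfbr1, Tgfbr3), which was so for 14.1% of all genes tested. At 8 weeks it was so for 5 of the 7, all but Tgfbr1 and Tgfbi, against 26.2% of all genes, and in all 8 rats for Tgfb3 and Tgfbr3, against 8.18%. The scale itself was off 0: the median log2 change of all genes was -0.08 at 2 weeks and -0.16 at 8 weeks, and -0.01 and -0.02 in edgeR with TMM scaling (trimmed mean of M values). Relative to the all-gene median, the 8-week changes were -0.60 for Tgfb3, -0.34 for Tgfbr2, -0.26 for Tgfbr3, -0.21 for Tgfbr1, -0.20 for Tgfb1, -0.05 for Tgfb2 and 0.43 for Tgfbi.

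**Figure D3:**
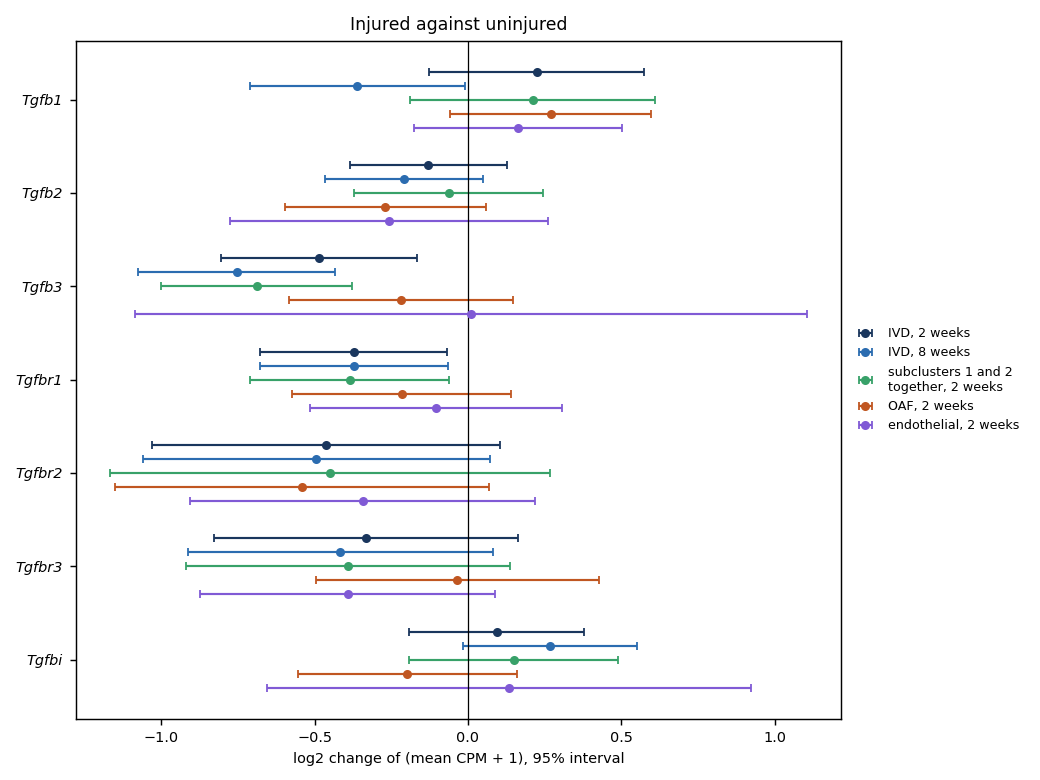
Log2 change of mean CPM + 1, injured against uninjured (horizontal axis), with its 95% interval from limma, for each gene in IVD cells at both times, in subclusters 1 and 2 together, in OAF cells and in endothelial cells. The Tgfb3 interval lay below 0 in IVD cells at both times and in subclusters 1 and 2 together, and reached across 0 in OAF and endothelial cells; no point had an adjusted p under 0.05.

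Within the inner disc cells Tgfb3 was again the member with the largest change in size. With subclusters 1 and 2 together it was 9.96 ± 1.12 CPM in CON and 5.78 ± 0.42 CPM in LDP (SD, n = 4), without overlap (log2 change -0.69 ± 0.13, SE, limma adjusted p = 0.235). No gene was called in this comparison (0%; 1228 of 10853 at an unadjusted limma p under 0.05; no other tool was run). As labelled, Tgfb3 was 8.91, 7.97, 9.12 and 9.50 CPM in CON NP cells and 5.14, 4.93, 5.33 and 6.12 CPM in LDP NP cells (-0.63 ± 0.15, SE, limma adjusted p = 0.276; 0.00928% of all genes called). In IAF cells it was 8.81, 14.8, 12.9 and 11.9 CPM in CON and 5.56, 6.22, 6.70 and 6.49 CPM in LDP (-0.84 ± 0.18, SE, limma adjusted p = 0.0766; 0.459% of all genes called). With the numbers exchanged in LDP, the change was -0.45 ± 0.14 (SE, limma adjusted p = 0.388; 0% of genes called, 1078 of 10811 at an unadjusted p under 0.05) for CON subcluster 1 and -1.02 ± 0.20 (SE, limma adjusted p = 0.119; 0.138% called) for CON subcluster 2. LDP was below CON in all 4 rats under each of these 5 pairings. The pairings reuse the same cells of the same rats and are not independent. Of all genes, 69.3% in NP and 51.5% in IAF cells as labelled had a change below 0. With means of the deposited log2 values the Tgfb3 change turned to 0.09 in IAF cells as labelled (limma adjusted p = 0.0667) and was -0.29 and called in NP cells (limma adjusted p = 0.00200). Under that setting most of all genes were called in NP and in IAF cells as labelled. Outer annulus markers, the genes of the subcluster in which Tgfb3 was highest, were lower in the same cells, with a sum of 3048 to 5291 CPM in CON and 2084 to 2900 CPM in LDP NP cells and 4080 to 9751 and 2260 to 4371 CPM in IAF cells (6 of 6 markers, none at 0). Their part in these Tgfb3 values was not tested.

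Tgfbr1 in the inner disc cells was 57.5 ± 5.5 CPM in CON and 43.6 ± 0.46 CPM in LDP over both together (SD, n = 4), without overlap (-0.39 ± 0.14, SE, limma adjusted p = 0.385). As labelled and exchanged its change was -0.45 to -0.34 (limma adjusted p from 0.353 to 0.424), and that of Tgfbr2 and Tgfbr3 was also below 0 under each matching. With means of the deposited log2 values Tgfbr1 turned to 0.84, Tgfbr2 to 0.84 and Tgfbr3 to 0.80 in IAF cells as labelled. These values were called (limma adjusted p = 0.00087, 0.0164 and 0.0048), under a setting that called most of all genes. The median IAF cell had 2442 to 3789 UMIs in CON and 7894 to 10580 in LDP, and the part of depth was not tested. For Tgfbr3, 12.3 to 19.5% of CON and 24.7 to 31.0% of LDP IAF cells held a UMI. With each cell thinned to 1000 UMIs, 4.92 to 6.36% and 3.03 to 5.02% did. The sign of Tgfb1, Tgfb2 and Tgfbi in NP or IAF cells depended on which subclusters were matched. Tgfbi, for one, was 0.43 ± 0.15 (SE) higher in LDP on the log2 scale in IAF cells as labelled (limma adjusted p = 0.253), -0.11 ± 0.17 in NP cells as labelled and 0.15 ± 0.14 with both together. With means of the deposited log2 values it was called in both as labelled, at 2.71 in IAF (limma adjusted p = 0.000294) and -1.26 in NP cells (limma adjusted p = 0.0123), a setting under which most of all genes were called in either.

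In OAF cells 1.47% of all genes were called, and no member. Tgfb3 in LDP OAF cells was 58.1, 57.5, 62.2 and 56.4 CPM, inside or just below the CON range but lower than CON of the same rat in all 4 rats (-0.22 ± 0.16, SE, limma adjusted p = 0.664). Without rat 4 this change was -0.07, and in edgeR with TMM it was -0.04. Tgfb2 was 71.5, 72.5, 61.7 and 54.4 CPM, below all 4 CON libraries (-0.27 ± 0.15, SE, limma adjusted p = 0.534). Tgfb1 was 67.2, 61.4, 72.9 and 75.1 CPM in LDP against 64.6, 47.0, 59.9 and 58.1 CPM in CON, higher in all 4 rats (0.27 ± 0.15, SE, limma adjusted p = 0.531).

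Markers of other cells were higher in LDP in this subcluster. The sum of 6 pericyte and smooth muscle markers in OAF cells was 162 to 207 CPM in CON and 640 to 966 CPM in LDP, and that of 3 Schwann cell markers was 2.28 to 5.96 and 89.6 to 623 CPM. Their part in the OAF values was not tested.

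No member was called in endothelial cells at 2 weeks, where limma called no gene (0%; 506 of 11224 at an unadjusted p under 0.05; edgeR called 46 genes). Tgfbr2 there was 178, 186, 238 and 254 CPM in CON and 220, 228, 225 and 67.8 CPM in LDP. Without the low LDP library of rat 4 the groups lay within the same range.

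In myeloid cells no member was called at 2 weeks (limma called 0% of the genes, 501 of 11147 at an unadjusted p under 0.05; edgeR called 2 genes) or at 8 weeks, where 0.475% of all genes were called and rat 8 was left out for having under 20 cells. Tgfb1 in myeloid cells was 213, 268, 254 and 161 CPM in CON and 368, 270, 195 and 172 CPM in LDP at 2 weeks, and 293, 169.1 and 182 CPM in CON and 120, 217 and 115 CPM in LDP of rats 5 to 7. Rats went both ways at each time. Tgfbr1 at 8 weeks was 85.4 ± 41.8 CPM in CON and 36.2 ± 14.0 CPM in LDP (SD, n = 3, log2 change -1.12 ± 0.47, SE, limma adjusted p = 0.395), lower in all 3 rats. The change of Tgfbr3 there was larger in size (-2.52 ± 1.201, SE, limma adjusted p = 0.476) but rested on few UMIs, with 8, 5 and 1 in CON (8.28, 9.23 and 8.69 CPM) and 0, 0 and 6 in LDP (0, 0 and 3.91 CPM), and ran from -4.69 to -0.16 over the alternatives.

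In lymphoid cells of 8 weeks, 5 of the 7 members passed the limit on low values, Tgfb2 and Tgfb3 being under it, and none was called (0.0203% of all genes were). Tgfb1 was 182, 159 and 204 CPM in CON and 79.2, 168.5 and 135 CPM in LDP (limma adjusted p = 1.00).

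Between 2 and 8 weeks some members were called. In uninjured IVD cells 4 of the 7 were called, where 19.3% of all genes were, and in injured IVD cells 1 of 7, where 4.37% were. Tgfbi fell from 251 ± 19 CPM at 2 weeks to 154 ± 29 CPM at 8 weeks in CON (SD, n = 4, log2 change -0.72 ± 0.14, SE, limma adjusted p = 0.00646), and stayed called in 15 of 15 alternatives. In LDP it was 269 ± 37 and 184 ± 28 CPM (-0.55 ± 0.16, SE, limma adjusted p = 0.0763), also without overlap but not called.

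Tgfb3 fell in both. In CON it went from 16.8 ± 1.1 to 10.1 ± 2.1 CPM (SD, n = 4, -0.70 ± 0.14, SE, limma adjusted p = 0.00923; called in 14 of 15 alternatives) and in LDP from 11.9 ± 2.5 to 5.57 ± 1.21 CPM (-0.97 ± 0.20, SE, limma adjusted p = 0.0287; called in 8 of 15). In LDP the call was lost without any 1 of rats 2, 3, 5, 6, 7 and 8, with adjusted p from 0.0505 to 0.101. The 2 receptors moved in opposite directions in CON. Tgfbr1 rose from 56.5 ± 4.9 to 71.5 ± 4.1 CPM (0.34 ± 0.09, SE, limma adjusted p = 0.0300) and Tgfbr2 fell from 67.4 ± 5.3 to 53.3 ± 3.4 CPM (-0.33 ± 0.09, SE, limma adjusted p = 0.0303), without overlap. Each of these calls was kept in 8 of 15 alternatives. That of Tgfbr1 was lost without rat 1, 3, 4, 5, 7 or 8 (adjusted p from 0.0546 to 0.0909), and that of Tgfbr2 without rat 1, 3, 4, 5 or 6 (0.0643 to 0.0871) and in edgeR with TMM (adjusted p = 0.0632). With means of the deposited log2 values the calls of both receptors and both calls of Tgfb3 were lost, at -0.19 for Tgfbr2 (limma adjusted p = 0.604), 0.59 for Tgfbr1 (limma adjusted p = 0.105) and -0.18 for Tgfb3 in CON and in LDP (limma adjusted p = 0.128 and 0.118).

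In LDP, Tgfbr1 was 43.3 ± 0.73 CPM at 2 and 55.6 ± 10.0 CPM at 8 weeks (0.34 ± 0.15, SE, limma adjusted p = 0.225) and Tgfbr2 52.3 ± 19.7 and 39.0 ± 12.5 CPM (-0.36 ± 0.34, SE, limma adjusted p = 0.568). Tgfb1, Tgfb2 and Tgfbr3 were not called with time in either. Tgfb1 was 58.0 ± 9.0 and 75.1 ± 14.8 CPM in CON (0.36 ± 0.15, SE, limma adjusted p = 0.119).

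Beside these changes, the summed outer annulus markers in CON IVD cells were 8681 to 15017 CPM at 2 weeks and 2388 to 4268 CPM at 8 weeks, and Col1a1 fell by 2.26 on the log2 scale (limma adjusted p = 0.00105). The endothelial marker sum in the same cells was 30.3 to 168 CPM at 2 and 8.86 to 16.99 CPM at 8 weeks, and that of the 5 IVD markers 19557 to 28739 and 9031 to 13591 CPM, without overlap. In LDP these sums were 13.8 to 26.2 and 6.58 to 8.31 CPM, and 17210 to 27266 and 9290 to 11423 CPM. The part of the endothelial and IVD markers in the changes with time, that of Tgfbr2 among them, was not tested. IVD subclusters were not given at 8 weeks, so the levels of OAF cells could not be compared over time, and the part of the outer annulus markers in the fall of Tgfb3, which was highest in OAF cells, was not tested.

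**Figure D4:**
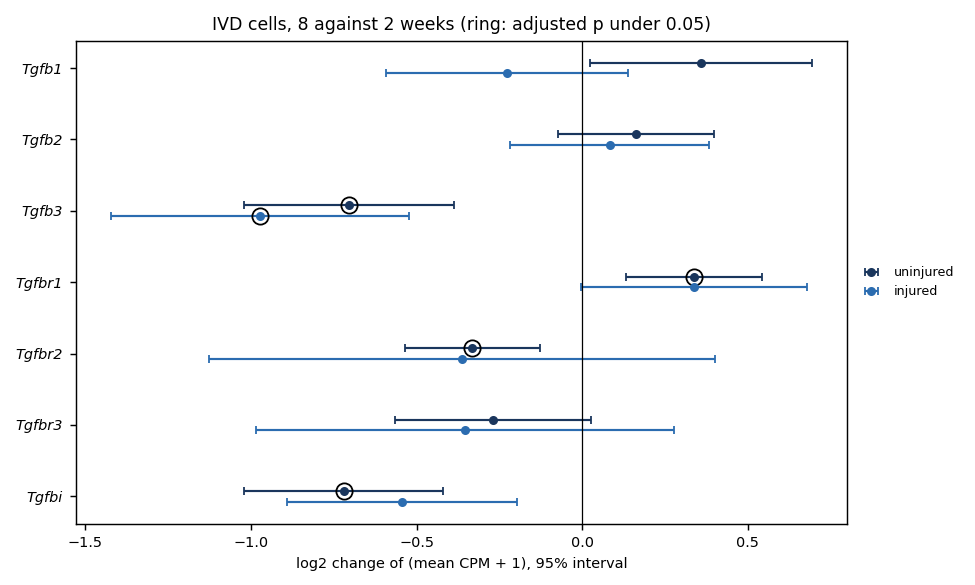
Log2 change of mean CPM + 1 in IVD cells, 8 against 2 weeks (horizontal axis), with its 95% interval from limma, in uninjured (dark) and injured (light) libraries; a ring marks an adjusted p under 0.05. Tgfb3 was ringed in both, Tgfbi, Tgfbr1 and Tgfbr2 in uninjured libraries.

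The other genes of the pathway were followed through 7 lists that name 80 genes, of which 73 were listed in the files and 70 tested in IVD cells. In IVD cells none of the 70 was called at 2 weeks, against 0.181% of all genes, and 1 was at 8 weeks, against 0.259%. Ltbp4, a latent TGF-beta binding protein that holds the ligand in the matrix, fell from 30.2 CPM in CON to 11.3 CPM in LDP at 8 weeks, in all 4 rats and without overlap (-1.40 ± 0.23, SE, limma adjusted p = 0.0424). This call was kept in 7 of 15 alternatives and was lost without any 1 of the 4 rats of 8 weeks (limma adjusted p from 0.109 to 0.226), with 10 CPM added (0.0686), with means of the deposited log2 values (0.140), in edgeR with TMM (0.0611) and in IVD cells without markers of other classes (0.436). The outer annulus marker sum in IVD cells was also lower in LDP in all 4 rats of 8 weeks, as given above, with Lum, one of its genes, at 102 to 148 CPM in CON and 24.5 to 61.3 CPM in LDP. The part of these markers in the 8-week values of Ltbp4 and of Mmp2, Postn and Col3a1, given next, was not tested.

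Among the latency and activation genes, 10 of 14 were below 0 on the log2 scale at 2 weeks and 13 of 14 at 8 weeks, with a median change of -0.31 and -0.53 against -0.08 and -0.16 for all genes, of which 64.1% and 71.5% were below 0. Itgav, an integrin subunit that activates the latent complex, was 30.7 CPM in CON and 20.1 CPM in LDP at 2 weeks (-0.71 ± 0.25, SE, limma adjusted p = 0.339), and Ltbp2 33.0 and 22.5 CPM (-0.71 ± 0.32, SE). At 8 weeks the protease Mmp2 was 58.3 and 24.4 CPM (-1.29 ± 0.31, SE, limma adjusted p = 0.0958).

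No gene that binds the ligand in the matrix was called. The proteoglycan gene Dcn was -0.24 ± 0.14 (SE) and Bgn -0.21 ± 0.15 on the log2 scale at 2 weeks, and Bgn -0.25 ± 0.15 and Cilp -0.20 ± 0.18 at 8 weeks. Of the co-receptors and receptor partners, Eng (endoglin) was 36.2 CPM in CON and 24.6 CPM in LDP at 2 weeks (-0.56 ± 0.15, SE, limma adjusted p = 0.207) and 23.2 and 16.8 CPM at 8 weeks (-0.42 ± 0.15, SE). Eng is also an endothelial gene, and the endothelial marker sum in the same IVD cells was 30.3 to 168 CPM in CON and 13.8 to 26.2 CPM in LDP at 2 weeks and 8.86 to 16.99 and 6.58 to 8.31 CPM at 8 weeks, whose part in the Eng values was not tested. Dab2, an adaptor between receptors and Smads, was -0.37 ± 0.19 and -0.62 ± 0.19 (SE).

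The 4 Smads tested were below 0 at both times. Smad4, the partner shared by all receptor-activated Smads, was -0.39 ± 0.27 (SE) at 2 weeks and -0.39 ± 0.27 at 8 weeks, and Smad7, which blocks the receptor, -0.34 ± 0.17 and -0.49 ± 0.17 (limma adjusted p = 0.448 and 0.159). The corepressor Ski was -0.41 ± 0.30 and -0.94 ± 0.30 (SE, limma adjusted p = 0.591 and 0.146), and the phosphatase Ppm1a -0.47 ± 0.32 and -0.66 ± 0.32. In the branch outside the Smads, the kinase gene Mapk14 was -0.31 ± 0.13 and -0.58 ± 0.13 (SE, limma adjusted p = 0.410 and 0.0912), Tab1 -0.27 ± 0.18 at 2 weeks and Traf6 -0.49 ± 0.14 at 8 weeks.

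No gene of these lists was called. Against the 64.1% and 71.5% of all genes below 0 at 2 and 8 weeks, 6 and 7 of the 9 co-receptor genes were below 0 (median -0.25 and -0.32), as were 11 and 11 of the 12 inhibitors and corepressors (-0.33 and -0.36) and 4 and 4 of the 5 genes outside the Smads (-0.26 and -0.33).

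Of the 22 target genes, 16 and 15 were below 0, against the same shares of all genes, with a median of -0.30 at both times. At 2 weeks Postn (periostin) was 82.9 CPM in CON and 35.5 CPM in LDP (-1.94 ± 0.77, SE, limma adjusted p = 0.383) and Cyr61, a matrix-associated signal, 415 and 156 CPM, lower in all 4 rats (-1.23 ± 0.24, SE, limma adjusted p = 0.0873). At 8 weeks Postn was 16.3 and 0.917 CPM (-3.10 ± 0.77, SE, limma adjusted p = 0.0986) and Col3a1, a fibrillar collagen, 846 and 397 CPM (-1.14 ± 0.31, SE, limma adjusted p = 0.110). Postn (-3.10 ± 0.41, SE, limma adjusted p = 0.0389) and Cyr61 (-1.66 ± 0.25, SE, limma adjusted p = 0.0479) were called in IAF cells as labelled, against 0.459% of all genes, in the comparison whose subclusters may not match. Neither was called with subclusters 1 and 2 together, where 0 genes were, with the numbers exchanged in LDP (-3.07 and -1.40, limma adjusted p = 0.0968 and 0.127, 0.138% of all genes called), or without rat 2 (limma adjusted p = 0.238 and 0.284). Markers of other cells and of the outer annulus differed in the same IAF cells. The endothelial sum was 22.04 to 279.6 CPM in CON and 14.2 to 20.1 CPM in LDP (8 of 9 markers listed, at most 1 at 0 in a library), the pericyte and smooth muscle sum 124 to 349 and 122 to 173 CPM, and the outer annulus sum 4080 to 9751 and 2260 to 4371 CPM (6 of 6 markers each, none at 0). Rgs5, a pericyte marker, was 1.87 to 62.9 CPM in CON and 0.0451 to 0.782 CPM in LDP. Their part in the Postn and Cyr61 values was not tested.

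**Figure D5:**
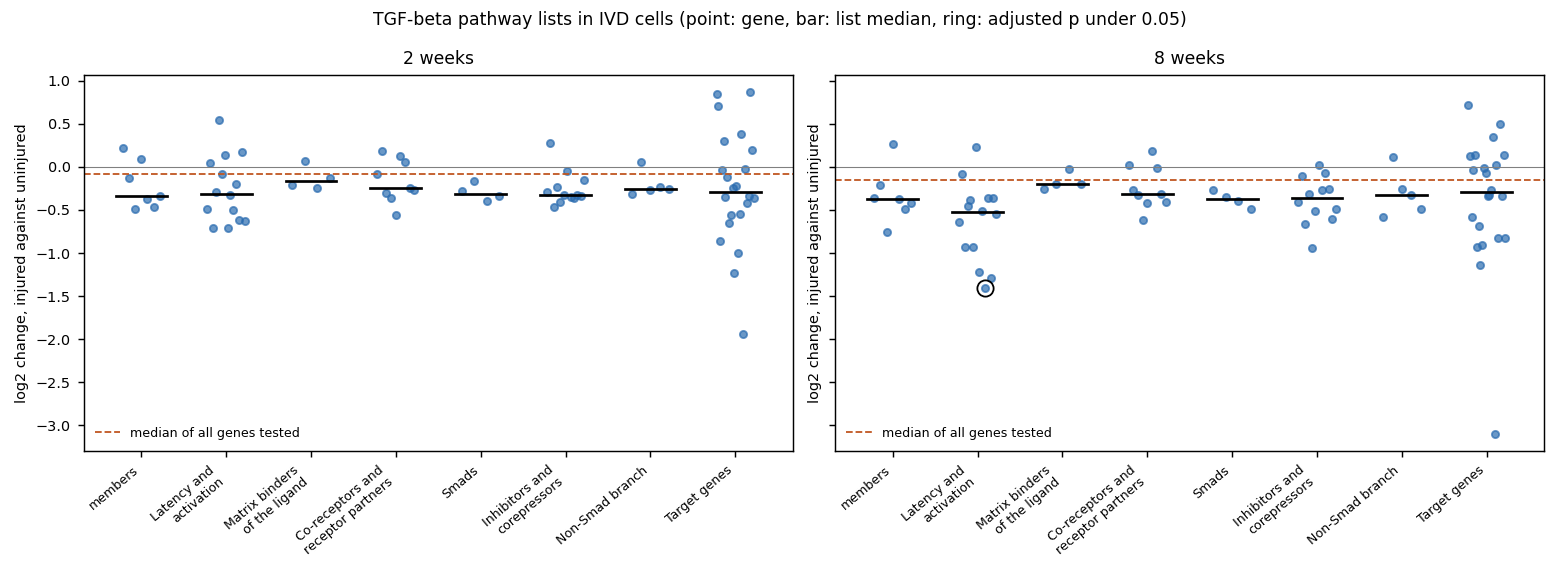
Log2 change of mean CPM + 1, injured against uninjured, in IVD cells at 2 and 8 weeks (vertical axis) for each tested gene of the 7 members and the 7 pathway lists; bars are list medians, the dashed line is the median of all genes tested and a ring marks an adjusted p under 0.05. Ltbp4 at 8 weeks is the only ringed gene, and the list medians lie below the dashed line at both times.

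In OAF cells 3 of the 71 list genes tested were called at 2 weeks, against 1.47% of all genes. Lrrc32, which encodes the surface protein GARP that anchors latent TGF-beta, rose from 6.58 CPM in CON to 18.7 CPM in LDP in all 4 rats (1.39 ± 0.20, SE, limma adjusted p = 0.00777), a call lost without rat 2 (limma adjusted p = 0.0650) and with means of the deposited log2 values (0.662). Acta2 rose from 1.82 to 60.5 CPM (4.49 ± 0.23, SE, limma adjusted p = 2.92e-05) and Tagln from 13.3 to 253 CPM (4.30 ± 0.29, SE, limma adjusted p = 6.23e-05). Acta2 and Tagln encode contractile proteins and are also pericyte and smooth muscle markers, which moved in the same libraries: Myh11 was 3.95 to 7.82 CPM in CON and 70.6 to 264 CPM in LDP, and Rgs5 0.253 to 15.3 and 60.5 to 168 CPM. In myeloid cells of 8 weeks Thbs1, a thrombospondin that can activate the latent ligand, rose from 14.6 to 347 CPM in 3 of 3 rats (5.39 ± 1.04, SE, limma adjusted p = 0.0442), a call lost when any 1 rat was left out (0.105 to 0.324). Thbs1 was the only list gene called there, against 0.475% of all genes. Myeloid markers differed between the same groups: Tyrobp was 703, 971 and 1047.5 CPM in CON and 1896, 1799 and 2096 CPM in LDP of rats 5 to 7, and the sum of 8 myeloid markers, none at 0, was 4438 to 11354 CPM over the 4 CON and 10448 to 13938 CPM over the 3 LDP libraries. Their part in the myeloid values of 8 weeks was not tested.

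Of all genes called with time in uninjured IVD cells, 1324 were lower and 837 higher at 8 weeks. Of the 69 list genes tested there, 22 were called, against 19.3% of all genes, 20 lower and 2 higher. The 8 latency and activation genes among them were all lower, with Mmp2 (-1.005 ± 0.18, SE, limma adjusted p = 0.00470), Mmp14 (-0.95 ± 0.13) and the microfibril protein Fbn1 (-0.80 ± 0.13) in front. Of the targets, Col1a1, Col3a1 (-1.71 ± 0.23), Postn (-2.20 ± 0.42), Tnc (-1.37 ± 0.16) and the tendon factor Scx (-1.07 ± 0.15) fell. Smad7 rose from 27.9 to 50.6 CPM (0.86 ± 0.16, SE, limma adjusted p = 0.00665), and Timp1, an inhibitor of metalloproteinases, from 379 to 625 CPM (0.70 ± 0.13). In injured IVD cells 14 of 69 were called, against 4.37% of all genes, 13 lower and Junb higher. Of all genes called there, 358 were lower and 121 higher. In both uninjured and injured cells, Mmp2, Mmp14, Fbn1, Ltbp3, Ltbp4, Bgn, Acvrl1, Col1a1, Col3a1, Tnc and Scx fell. Called lower in uninjured cells only were Thbs1, Ltbp2, Itgav, Dab2, Cd109, Ski, Postn, Col5a1 and Bhlhe40. Lrrc32 and Pmepa1 were called lower in injured cells only. With means of the deposited log2 values 16 list genes were called in uninjured cells, 13 of them among the 22, against 6.05% of all genes, and 7 in injured cells, 6 of them among the 14, against 1.90%. With a rat left out, 19 to 26 were called in uninjured cells, against 9.94 to 22.1% of all genes. In injured cells 3 to 7 were called without any 1 of rats 1, 2, 3, 5, 6, 7 and 8, where 1.28 to 2.63% of all genes were, and 25 without rat 4, where 13.4% were. The outer annulus markers, Col1a1 among them, moved with these genes as given above.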

How the data were processed

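Single-cell RNA libraries of 16 disc samples from 8 rats were analysed. The authors deposited log2(CPM + 1) values per cell, with the total of each cell as an expected count and its mitochondrial reads as a percent. Per the labels the build was rn6 and the software Partek, and the aligner is not given in the sources used here. They had kept cells with under 10% mitochondrial reads, 500 to 3000 genes and 500 to 30000 UMIs. A treatment of doublets is not given in the sources used here, and no doublet caller was run. Whole UMIs were recovered from the log2 values for 99.43% of values above 0 (within 0.02 of a whole number), and counts summed from them entered edgeR only.

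Groups came from the labels and classes from the authors' annotation. Mean CPM per library and class (at least 20 cells) was put on a log2 scale with 1 CPM added. Genes with at least 1 CPM in at least 4 libraries were tested with limma 3.58.1 (moderated with a mean-variance trend) in R 4.3.3, with Benjamini-Hochberg adjustment over all genes and a threshold of 0.05. Injury was compared with the rat as block. Libraries of equal number in the sample titles were taken as 1 animal, since the paper compares CON and LDP within each rat. The correlation of their deviations from the group means was -0.18 to 0.45 over the 8 rats. Time was compared between 4 and 4 rats without a block. Shares of cells with a UMI were computed at 1000 UMIs per cell.

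All 7 members were named, as were the 3 genes most like each in level, list genes past the threshold, and in IVD cells the 2 list genes with the largest change. The members, gene lists and rules were chosen with earlier results of these data known. Alternatives were the pseudocount (0.1 and 10 CPM), no filter, CPM of summed counts, means of log values, no block, libraries of 1 time, edgeR 4.0.16 with and without TMM, each rat left out, and IVD cells without markers of other classes. Leaving red cell markers out of that choice, weighting subclusters equally and matching them otherwise were chosen after seeing the data. The code was tested on simulated data, for limma on log2 values with normal errors and for edgeR on counts. Intervals and depth cover counting and library spread only, and the libraries' numbers of cells and UMIs limit the precision as given above.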

Additional observations from a re-analysis of the deposited data

Results flagged for a closer look

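One library stood apart from its group. Tgfbr2 in IVD cells of the injured library of rat 4 at 2 weeks was 22.98 CPM, while the other 3 injured libraries were at 58.6 to 64.4 CPM, a gap of 0.862 of the group's range and past Dixon's 95% limit for 4 samples. By chance about 1 group in 20 passes this limit. Without rat 4 the change with injury at 2 weeks was -0.07 on the log2 scale, against -0.46 with it. Red cell markers (3 of 9 listed) summed to 1352 CPM in the IVD cells of this library, against 1.65 to 462 CPM in the other libraries of 2 weeks. Of its 8992 IVD cells, 100 held no marker of another class. The reason this library was low was not tested.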

How the results depend on the processing

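For the injury changes of the members in IVD cells and their subclusters and for their changes with time, 655 values under the alternatives kept their direction and their side of the threshold, 22 lost and 10 gained a call with their sign kept, and 20 changed sign, 4 of which also gained a call, with the opposite sign. In all cells, the other classes and the difference between times, 557 kept both, 47 changed sign and none gained or lost a call. Counts of all genes called were less stable, with 111 that moved by over 1.5 times and 87 that did not, and the cause was not tested. In IVD cells at 2 weeks the 21 genes called became 3 with 10 CPM added, 1 with means of log values, and 0 in libraries of that time alone, in edgeR without TMM and in cells without other markers. At 8 weeks the 30 became 81 with 0.1 CPM added, 19 with means of log values, 132 in libraries of that time alone, 0 in cells without other markers and 147 with red cell markers not used. The difference between times went from 0 to 2 with 0.1 CPM. All cells at 2 weeks went from 0 to 1 with pooled CPM, and at 8 weeks from 1 to 4 with pooled CPM, 0 in that time alone, and 2 and 3 in edgeR with and without TMM. In NP cells 1 became 8107 with means of log values, beside the unequal depth of the subclusters, whose part was not tested, and 0 with either other pseudocount, no filter, pooled CPM, edgeR and both other matchings. In IAF cells 50 became 81 and 5 (0.1 and 10 CPM), 7 (no filter), 1 (pooled), 9572 (means of log values), 4 (edgeR with or without TMM), 15 (exchanged) and 0 (together). Endothelial cells went from 0 to 34 (pooled), 25 (means of log values), 46 and 34 (edgeR with and without TMM), myeloid cells at 2 weeks from 0 to 2 in both edgeR fits, and at 8 weeks from 53 to 2 and 88 (0.1 and 10 CPM), 2 (no filter), 1 (pooled), 150 (means of log values), 155 (that time alone), 109 and 104 (edgeR). Lymphoid cells went from 2 to 0 (0.1 CPM, pooled), 18 and 25 (edgeR). Time calls went from 2161 to 678 in uninjured and from 479 to 208 in injured IVD cells with means of log values.

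Without the replicate block, that is without pairing the libraries of a rat, IVD cells had 10 genes called at 2 weeks, the difference 3, all cells at 8 weeks 3, IAF cells 10 and lymphoid cells 0. No call of a member changed. With each rat left out in turn, the counts ran from 0 to 7 and 1 to 8 in IVD cells at 2 and 8 weeks, 0 to 13 for their difference, 0 to 1 in all cells at either time, 0 to 32 in NP, 0 to 122 in IAF, 70 to 244 in OAF, 1 to 16 in endothelial, 0 to 23 and 1 to 17 in myeloid (2 and 8 weeks) and 0 to 87 in lymphoid cells, and from 1102 to 2455 and 138 to 1448 with time in uninjured and injured IVD cells (1448 without rat 4).

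Signs changed for Tgfbi in IVD cells at 2 weeks without rat 4 (-0.0154, and up to 0.163 without another rat), Tgfb2 at 8 weeks with means of log values (0.0318), and Tgfbr3 in OAF cells without rat 3 (0.0401) or 4 (0.182, against -0.222 without rat 2). In NP cells they changed for Tgfb1 with means of log values (-0.25), Tgfbi in edgeR with TMM (0.0553), without rat 3 (0.0234, against -0.225 without rat 4), exchanged (0.187) and together (0.149), and Tgfb2 exchanged (0.0378). In IAF cells they changed with means of log values for Tgfb1 (1.25), Tgfb3 (0.0853), Tgfbr1 (0.84), Tgfbr2 (0.84) and Tgfbr3 (0.80), for Tgfb1 without rat 2 (0.0837, against -0.204 without rat 4), exchanged (0.131) and together (0.211), and for Tgfb2 exchanged (-0.173) and together (-0.0624). Among values not called in the first place, signs also changed in the difference between times for Tgfbr2 (8 alternatives), Tgfbr1 (6), Tgfbr3 (4), Tgfb2 (2) and Tgfb3 (1), in endothelial cells for Tgfb3 (3), Tgfbr1 (2), Tgfbr2 (1) and Tgfbi (1), in lymphoid cells for Tgfbr2 (5), Tgfbr1 (3) and Tgfbr3 (3), in myeloid cells for Tgfb1 (1) and Tgfbi (1) at 2 and Tgfbi (2) and Tgfb3 (1) at 8 weeks, and in all cells for Tgfbi (2) at 2 and Tgfbr3 (1) at 8 weeks. Means of log values gained calls in NP cells for Tgfb2 (-0.36), Tgfb3 (-0.29), Tgfbr1 (-1.25), Tgfbr2 (-1.29), Tgfbr3 (-1.15) and Tgfbi (-1.26), and in IAF cells for Tgfb2 (0.52) and Tgfbi (2.71) and, with the opposite sign, for Tgfb1, Tgfbr1, Tgfbr2 and Tgfbr3 (adjusted p from 0.000869 to 0.0164). For the named pathway genes 900 values kept their direction and side of the threshold, 143 lost and 3 gained a call, and 4 changed sign. With all UMIs of a cell in place of 1000, the share of uninjured IVD cells at 2 weeks with a UMI was 24.83% for Tgfb1, 11.22% for Tgfb2, 7.776% for Tgfb3, 26.33% for Tgfbr1, 29.49% for Tgfbr2, 25.04% for Tgfbr3 and 58.13% for Tgfbi.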
